A study of Mus musculus with 69 samples.

Results

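Amino acid transporters are membrane proteins of the solute carrier (Slc) families that move amino acids into and out of cells. The 9 genes described here were chosen by name, as Slc7a5, Slc3a2, Slc1a5, Slc1a4, Slc38a1, Slc38a2, Slc7a1, Slc7a6 and Slc43a1, out of 24309 gene symbols that 3 tables of mouse RNA-seq counts have in common. SLC7A5 (LAT1) is bound to the heavy chain SLC3A2 (CD98) and imports large neutral amino acids such as leucine in exchange for glutamine, and resting T cells are known to make more of it when they are activated. Leucine is sensed by mTORC1, the kinase complex that drives protein synthesis and growth. SLC7A1 (CAT-1) imports arginine and lysine, SLC38A1, SLC38A2 and SLC1A5 import glutamine or other small neutral amino acids, and IL-7 and IL-15 are cytokines of lymphocyte survival whose receptors activate STAT5A and STAT5B.

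The samples were T cells sorted from pooled lymph nodes and spleens of mice aged 8 to 16 weeks, with 3 genotypes of germline deletion that every cell of the animal carried. WT mice were Stat5a+/+ Stat5b+/+, AAB mice were Stat5a-/- Stat5b+/- and so kept 1 Stat5b allele, and BBA mice were Stat5a+/- Stat5b-/- and so kept 1 Stat5a allele. CD8+ cells were naive (Tnv, CD44 low CD62L high), central memory (Tcm, CD44 high CD62L high) or effector memory (Tem, CD44 high CD62L low), and CD4+ cells were Tnv. Besides cells without cytokine, CD8+ Tnv and Tcm were given IL-7 or IL-15, CD8+ Tem were given IL-15 and CD4+ Tnv were given IL-7. Cytokines were given at 10 ng per ml for 12 to 16 hours by the labels, and for up to 18 hours by the methods of the study. Cells without cytokine were cultured by the labels but were processed directly after the sort by the methods, so that culture and cytokine cannot be told apart in a comparison of the cytokine with no cytokine. In a separate set, naive CD8+ cells of AAB mice were activated through CD3 and CD28. They were transduced with a MigR1 retrovirus that carried constitutively active STAT5A (CA-STAT5A) or with the empty vector. After this they were cultured with IL-2 and sorted for GFP.

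There were 48 CD8 libraries in 24 groups of 2, 15 CD4 libraries in 6 groups of 2 or 3, and 4 retrovirus libraries in 2 groups of 2. The libraries held between 5926139 and 25612758 gene counts for CD8, between 6705004 and 34118295 for CD4 and between 11020965 and 16516525 for the retrovirus set. The methods of the study call the replicates biological, and the labels do not tie libraries to animals. The p-values measure the spread between these libraries. The targeted gene Stat5a was at 32.2 to 110 CPM (the usual read rate, a count relative to its scaled library size) in WT, 31.1 to 51.6 CPM in BBA and 0.981 to 5.13 CPM in AAB CD8 libraries. In CD4 libraries these ranges were 34.1 to 87.4, 35.6 to 47.9 and 0.811 to 1.88 CPM. Stat5b was at 167 to 360 CPM in WT, 80.5 to 132 CPM in AAB and 49.0 to 87.4 CPM in BBA CD8 libraries. The CD4 ranges of Stat5b were 271 to 377 CPM in WT, 138 to 203 CPM in AAB and 95.2 to 133 CPM in BBA. Stat5a was lower in AAB than in WT and BBA in each library, and its BBA range overlapped that of WT in the CD8 and the CD4 table. Stat5b was below WT in both genotypes, with reads still counted in BBA and with ranges of AAB and BBA that overlapped in the CD8 table. Summed CD8 lineage markers were at 1243 to 3300 CPM in the CD8 table and at 9.88 to 26.9 CPM in the CD4 table. The retrovirus libraries went against their label: Cd8a and Cd8b1 together were at 1.73 to 4.67 CPM, the T cell markers at 279 to 361 CPM against 1066 to 2251 CPM in the CD8 table, and the NK cell markers at 2337 to 2664 CPM against 20.3 to 712 CPM. The CD4 lineage markers summed to 327 CPM in replicate 2 of the WT Tnv given IL-15, against 10.8 CPM in replicate 1. By X- and Y-linked genes, the CD8 Tnv libraries with IL-7 and the CD4 libraries were from male mice, and other CD8 libraries were from female mice. The exception was Tcm given IL-7, with 2 male libraries in WT and 1 library of each sex in AAB and in BBA. In these bulk samples fewer cells of a type and less RNA per cell cannot be told apart.

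In the GRCm38 annotation each of the 9 genes is protein-coding. Slc7a5 (chromosome 8, 121881150 to 121907694, minus strand) is overlapped on the opposite strand by Gm20388. Since the use of strand in the counting is not given in the sources used here, reads of these genes cannot be told apart. Slc3a2 lies on chromosome 19 from 8706882 to 8723369 and Slc7a1 on chromosome 5 from 148327410 to 148399904, both on the minus strand. Slc7a6 is on the plus strand of chromosome 8, from 106168857 to 106198706. Slc38a1 and Slc38a2 are neighbours on the minus strand of chromosome 15, from 96571418 to 96642913 and from 96687392 to 96699730. Slc1a5 (chromosome 7, 16781340 to 16798274) and Slc43a1 (chromosome 2, 84838850 to 84863594) are on the plus strand, and Slc1a4 (chromosome 11, 20302180 to 20332713) is on the minus strand.

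Upstream sequences from RefSeq (GRCm38.p6) were given for 6 members, in 8 windows of 250 bases, and none was given for Slc7a5, Slc1a5 and Slc38a1. They were searched on both strands for the STAT motif TTCNNNGAA, the E-box CACGTG, which MYC and MAX bind, and the amino acid response motif TGATGNAA. Only 1 of the 8 windows held the STAT motif, which 7.02% of 32851 mouse promoter windows of the same length held. It lies before the second RefSeq start of Slc7a1, 146 to 138 bases upstream, in a window that is wholly exon of a longer Slc7a1 transcript. The E-box was found in 1 window, that of Slc43a1, against 6.02% of all windows, and TGATGNAA in 0 windows, against 3.45%. A match or its absence in these windows says nothing about binding. Slc7a1 and Slc38a2 are the called members whose upstream bases lie outside exons. The bases before their starts, and the STAT motif of Slc7a1 with 10 bases on either side, are printed 5′ to 3′ on the minus strand, with the motif in capitals.
Slc7a1, chr5:148399905-148400154: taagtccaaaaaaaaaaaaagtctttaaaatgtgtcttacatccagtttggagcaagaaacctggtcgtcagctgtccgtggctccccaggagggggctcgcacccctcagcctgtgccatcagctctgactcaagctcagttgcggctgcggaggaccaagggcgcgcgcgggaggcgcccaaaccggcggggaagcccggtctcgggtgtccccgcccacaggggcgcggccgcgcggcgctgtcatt
Slc7a1, chr5:148392943-148392971: agggccactcTTCAAAGAAgccctttgaa
Slc38a2, chr15:96699731-96699978: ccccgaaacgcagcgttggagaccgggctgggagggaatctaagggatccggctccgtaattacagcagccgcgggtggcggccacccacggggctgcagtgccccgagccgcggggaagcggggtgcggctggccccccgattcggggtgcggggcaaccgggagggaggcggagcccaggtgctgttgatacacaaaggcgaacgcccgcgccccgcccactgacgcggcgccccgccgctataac

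Levels were compared between genes as CPM per kilobase of merged exon, and between libraries as CPM, with totals scaled by the trimmed mean of M-values (TMM) within each table. In WT Tcm without cytokine the order of the mean levels per kilobase was Slc1a5 (48.2 ± 4.8, SD, n = 2), Slc3a2 (40.8 ± 2.9), Slc38a2 (28.2 ± 7.5), Slc7a5 (22.5 ± 0.75), Slc7a6 (14.96 ± 0.45), Slc38a1 (11.6 ± 0.35), Slc7a1 (11.4 ± 0.24), Slc43a1 (0.332 ± 0.17) and Slc1a4 (0.237 ± 0.069). The libraries of Slc38a2 and Slc7a5, of Slc38a1 and Slc7a1, and of Slc43a1 and Slc1a4 overlapped, so these neighbours did not differ beyond their spread. In WT Tcm with IL-15, Slc7a5 stood second with 44.5 ± 0.87 CPM per kilobase after Slc1a5 with 64.9 ± 0.98, and its libraries overlapped those of Slc3a2 at 43.7 ± 0.63, which overlapped those of Slc38a2 at 42.6 ± 1.6. Slc1a5 was first by its mean in each of the 10 WT groups, and its libraries overlapped those of the next gene in CD8+ Tnv without cytokine, in Tem given IL-15 and in CD4+ Tnv given IL-7. Slc3a2 or Slc38a2 was next to it in 9 of them, and Slc43a1 and Slc1a4 were the last 2 in each. In CD4+ Tnv the levels per kilobase without cytokine were 64.6 ± 8.2 for Slc1a5 and 13.7 ± 2.7 for Slc7a5 (n = 3), in a table that was scaled separately.

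**Figure D1:**
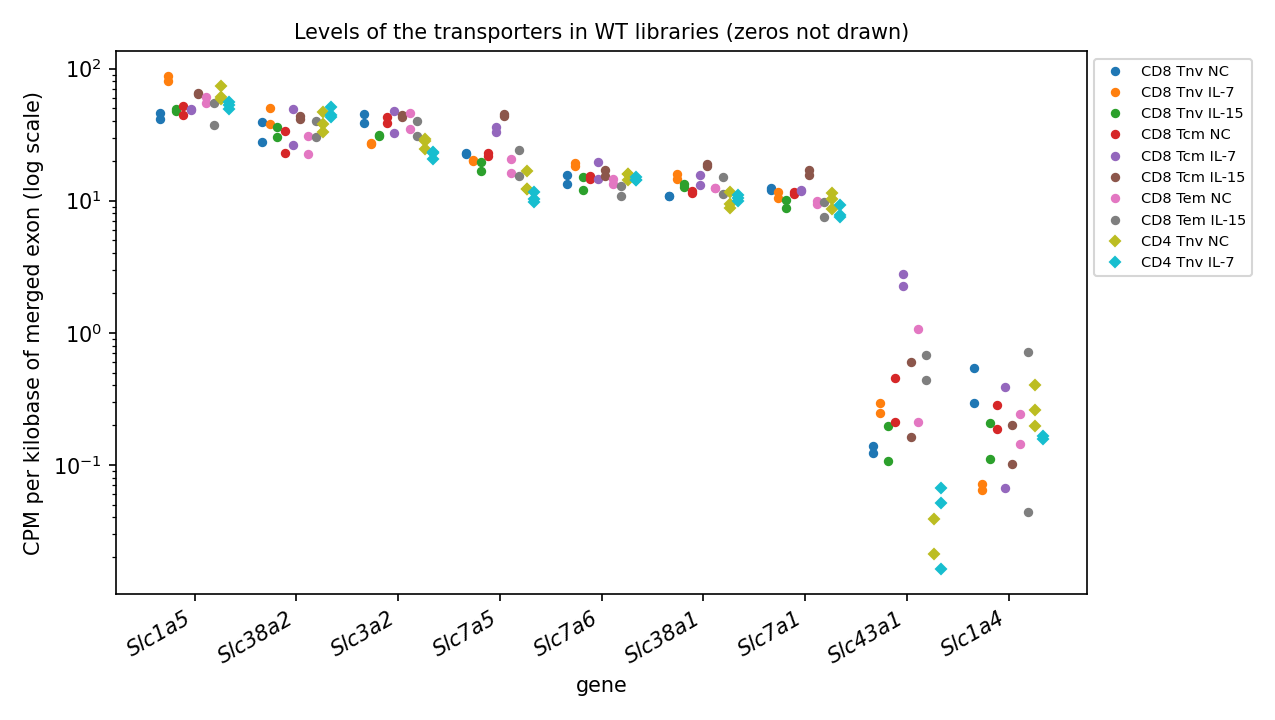
Levels of the 9 transporter genes in the WT groups, as CPM per kilobase of merged exon on a log axis, with a point for each library and values of 0 not drawn. Slc1a5 has the highest mean in every group, Slc7a5 moves next to Slc3a2 and Slc38a2 in Tcm with IL-15, and Slc43a1 and Slc1a4 lie far below the other genes.

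Between WT cell states without cytokine the data showed no called difference in these genes. edgeR called 0 of 7 tested members between Tcm and Tnv, where 2.71% of all tested genes were called, and 0 of 7 between Tem and Tcm, where 1.90% were. At an unadjusted p under 0.05 there were 0 and 1 members, and DESeq2 called 0 in both. A call here needs both a change over 1.5-fold and an edgeR p under 0.05 after Benjamini-Hochberg adjustment over all genes tested. A member is tested where it passed a filter on low counts that was set in each comparison. Here and below, the shares of all tested genes are those of edgeR calls. Counts of members at an unadjusted p or by DESeq2 have no share of their own unless one is given. They are a description and no result about the members.

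The question of the genotype comparisons was how transcripts change as Stat5 alleles are lost, with 1 allele of either paralog left. Higher levels in WT than in BBA were called for Slc7a5 in 4 conditions and for Slc7a1 in 4, each with IL-15 or IL-7, and no member was called between WT and BBA without cytokine. With IL-15, 2 of 7 tested members were called in Tnv, 4 of 8 in Tcm and 2 of 8 in Tem, where 9.43%, 23.7% and 1.79% of all tested genes were called. With IL-7, it was 1 of 7 in CD8+ Tnv, 2 of 8 in CD8+ Tcm and 1 of 7 in CD4+ Tnv, against 2.69%, 3.09% and 5.55% of all tested genes. Without cytokine, edgeR called 0 of 7 in CD8+ Tnv, 0 of 8 in Tcm, 0 of 8 in Tem and 0 of 8 in CD4+ Tnv, against 2.78%, 0.287%, 0.207% and 1.13% of all tested genes. At an unadjusted p under 0.05 there were 3, 2, 0 and 1 members in those 4 comparisons, and DESeq2 called 1 in Tcm and 0 in the others. The median log2 fold change of the tested members in Tcm with IL-15 was 0.47 against −0.02 over all tested genes, and without cytokine it was −0.15 against −0.01. The member median in Tnv with IL-15 was 0.36, in Tem with IL-15 it was 0.29, and in CD4+ Tnv with IL-7 it was 0.16, while the medians over all tested genes were 0.01, −0.02 and 0.00.

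Between WT and AAB fewer members were called. They were 1 of 7 in Tnv and 2 of 8 in Tcm with IL-15, where 0.893% and 4.27% of all tested genes were called. edgeR called 0 of 8 in Tem with IL-15 (background 0.0190%), 0 of 7 in CD8+ Tnv with IL-7 (0.257%), 0 of 8 in Tcm with IL-7 (0.0598%) and 0 of 7 in CD4+ Tnv with IL-7 (0.627%). Without cytokine it called 0 of 7 in CD8+ Tnv (0.166%), 0 of 8 in Tcm (0.0411%), 0 of 8 in Tem (0.0197%) and 0 of 8 in CD4+ Tnv (0.373%). At an unadjusted p under 0.05 there were 3 members in Tem with IL-15, 2 in CD4+ Tnv with IL-7 and at most 1 in each of the other 6 comparisons without a call, and DESeq2 called 1 member in Tem with IL-15 and 0 in the others. Between AAB and BBA directly, 2 of 8 members were called in Tcm with IL-15, where 5.99% of all tested genes were called. edgeR called 0 of 7 in Tnv with IL-15 (0.0702%), 0 of 8 in Tem with IL-15 (0.00949%) and 0 of 7 in CD4+ Tnv with IL-7 (1.57%), with 2 members each at an unadjusted p under 0.05 and 0 calls by DESeq2. The comparisons of a condition share libraries, so their values are given side by side and are not independent.

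**Figure D2:**
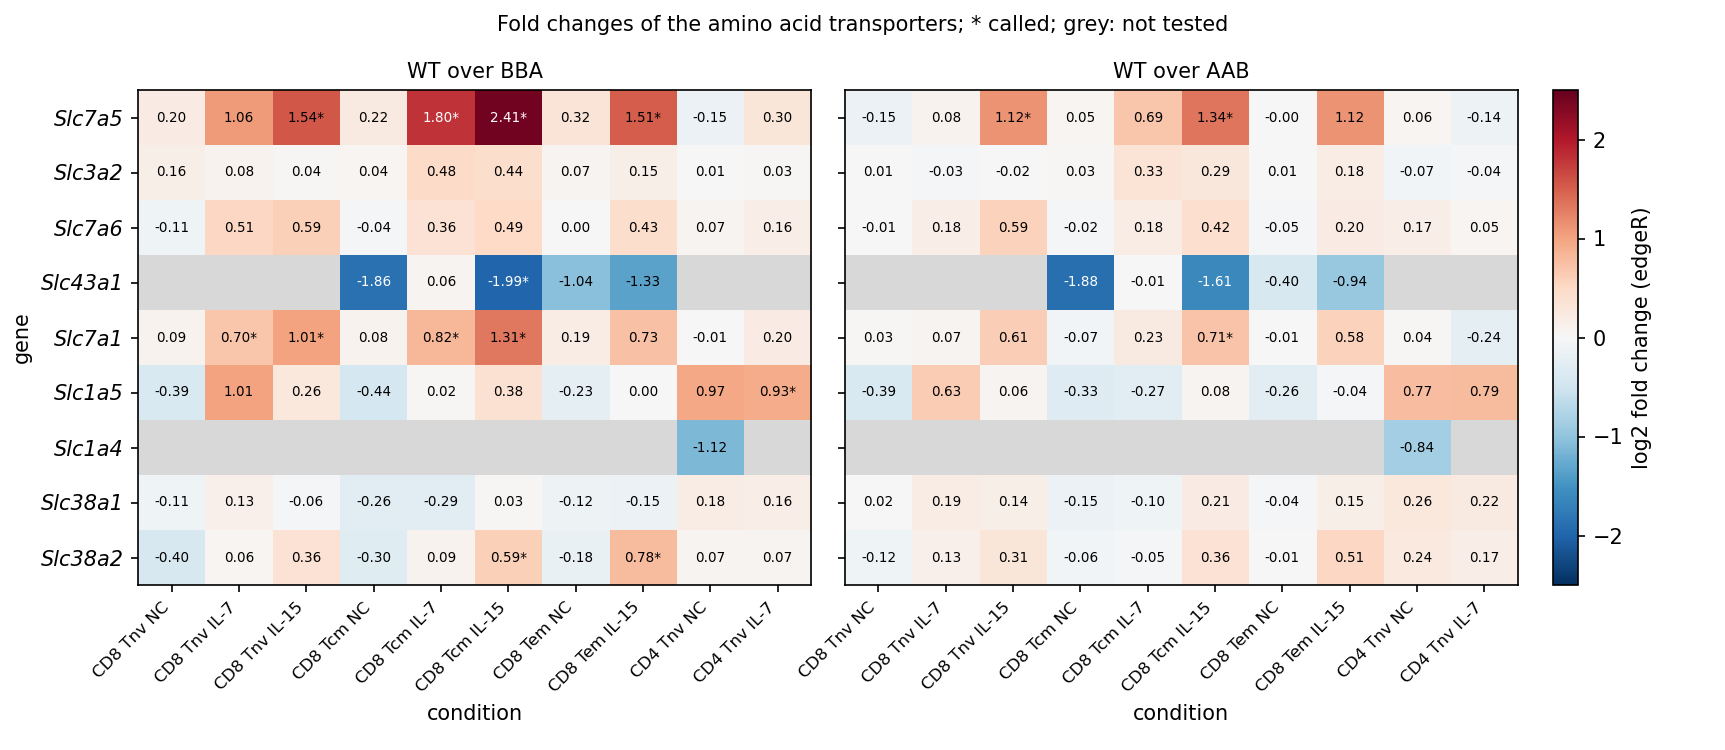
Log2 fold changes of WT over BBA and of WT over AAB for the 9 transporter genes in each condition, with red for higher in WT, blue for lower and marks for calls. Calls against BBA lie in columns with a cytokine, and the largest positive value is that of Slc7a5 in Tcm with IL-15 (2.41).

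Slc7a5, the leucine importer, was the member with the largest called rise of WT over BBA. Its level in Tcm with IL-15 was 167 and 163 CPM in WT, 54.3 and 69.8 CPM in AAB and 24.1 and 27.0 CPM in BBA. The 3 genotypes did not overlap, and AAB lay between the others. WT exceeded BBA 5.31-fold (log2 2.41 ± 0.13 SE, adjusted p = 9.6e-05), WT exceeded AAB 2.53-fold (1.34 ± 0.12, adjusted p = 0.0047), and AAB exceeded BBA 2.10-fold (1.07 ± 0.13, adjusted p = 0.0078). These 3 calls held when any 1 library of the genotypes compared was left out. In Tcm without cytokine the same gene was at 81.4 and 85.3 CPM in WT, 74.7 and 79.6 CPM in AAB and 61.4 and 72.8 CPM in BBA, with a log2 difference of WT over BBA of 0.22 (adjusted p = 0.62).

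Slc7a5 was lower in BBA than in WT in Tnv and Tem with IL-15 as well. In Tnv it was at 61.6 and 73.2 CPM in WT, 27.5 and 30.6 CPM in AAB and 16.6 and 21.5 CPM in BBA, without overlap between genotypes. WT exceeded BBA 2.91-fold (log2 1.54 ± 0.17 SE, adjusted p = 0.0040), which held without any 1 library. WT exceeded AAB 2.17-fold (1.12 ± 0.16, adjusted p = 0.037), a call that was lost without either AAB library (adjusted p = 0.33 and 0.23) and without replicate 2 of WT (log2 0.97, adjusted p = 0.078), the library with CD4 lineage markers. The difference of AAB over BBA was 0.43 ± 0.17 (adjusted p = 0.67). In Tem the level was 89.6 and 57.3 CPM in WT, 31.4 and 35.9 CPM in AAB and 25.2 and 24.5 CPM in BBA, and again WT lay above both other genotypes in each library. WT exceeded BBA 2.84-fold there (1.51 ± 0.20, adjusted p = 0.036), and with any 1 of the 4 libraries left out the adjusted p was between 0.091 and 0.22. WT over AAB was 1.12 ± 0.20 (adjusted p = 0.27) and AAB over BBA 0.39 ± 0.20 (adjusted p = 0.73). The former was called by DESeq2 (1.12, adjusted p = 1.8e-05) and with the replicate number as a block (1.13, adjusted p = 0.017). It was also called with one fit over all CD8 libraries (1.14, adjusted p = 0.0495) and without a filter (1.16, adjusted p = 0.013).

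With IL-7, the 2 CD8 states showed the same order of WT and BBA libraries for Slc7a5, and CD4+ Tnv a smaller difference. In Tcm the level was 133 and 123 CPM in WT, 82.9 and 61.2 CPM in AAB and 39.9 and 23.2 CPM in BBA, without overlap. WT exceeded BBA 3.48-fold (log2 1.80 ± 0.28 SE, adjusted p = 0.033), and WT over AAB was 0.69 (adjusted p = 0.43). The call against BBA was lost without replicate 1 of BBA (2.21, adjusted p = 0.14), without replicate 2 of BBA (1.48, adjusted p = 0.25), and with a term for sex (2.16, adjusted p = 0.075), which was unevenly spread over these genotypes. In this group the WT libraries also stood apart from each other in Ddit4, a gene of the response to stress and amino acid shortage, at 27.2 and 468 CPM. In CD8+ Tnv the level of Slc7a5 was 75.7 and 74.6 CPM in WT, 94.3 and 50.9 CPM in AAB and 41.7 and 28.9 CPM in BBA, so that WT lay above BBA but inside the range of AAB. The difference of WT over BBA of 1.06 ± 0.28 did not pass (adjusted p = 0.12). DESeq2 called it (1.06, adjusted p = 0.0076), as did edgeR with one fit over all CD8 libraries (1.06, adjusted p = 0.0049). It was also called with the replicate number as a block (1.10, adjusted p = 0.019) and without a filter (1.09, adjusted p = 2.1e-08). In CD4+ Tnv the level was 36.4, 38.0 and 43.3 CPM in WT, 46.8 and 39.2 CPM in AAB and 33.1, 30.3 and 31.1 CPM in BBA, with WT above BBA in each library and a log2 difference of 0.30 ± 0.10 (adjusted p = 0.078).

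Without cytokine Slc7a5 was at 83.6 and 84.7 CPM in WT, 97.7 and 91.0 CPM in AAB and 73.3 and 72.9 CPM in BBA Tnv, and the WT over BBA difference was 0.20 ± 0.07 (adjusted p = 0.16). In Tem it was at 60.1 and 77.2 CPM in WT, 63.9 and 63.7 CPM in AAB and 40.8 and 59.3 CPM in BBA (0.32 ± 0.24, adjusted p = 0.77). In CD4+ Tnv it was at 62.6, 45.1 and 45.2 CPM in WT, 44.9 and 52.7 CPM in AAB and 68.9 and 44.3 CPM in BBA, which overlapped (−0.15 ± 0.21, adjusted p = 0.87). In CD8+ Tnv, Tcm and Tem without cytokine each BBA library of Slc7a5 lay below each WT library, and none of these differences was called. Over all BBA CD8 libraries the level was 16.6 to 41.7 CPM with a cytokine and 40.8 to 73.3 CPM without, whereas in WT it was 57.3 to 167 CPM with and 60.1 to 85.3 CPM without.

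**Figure D3:**
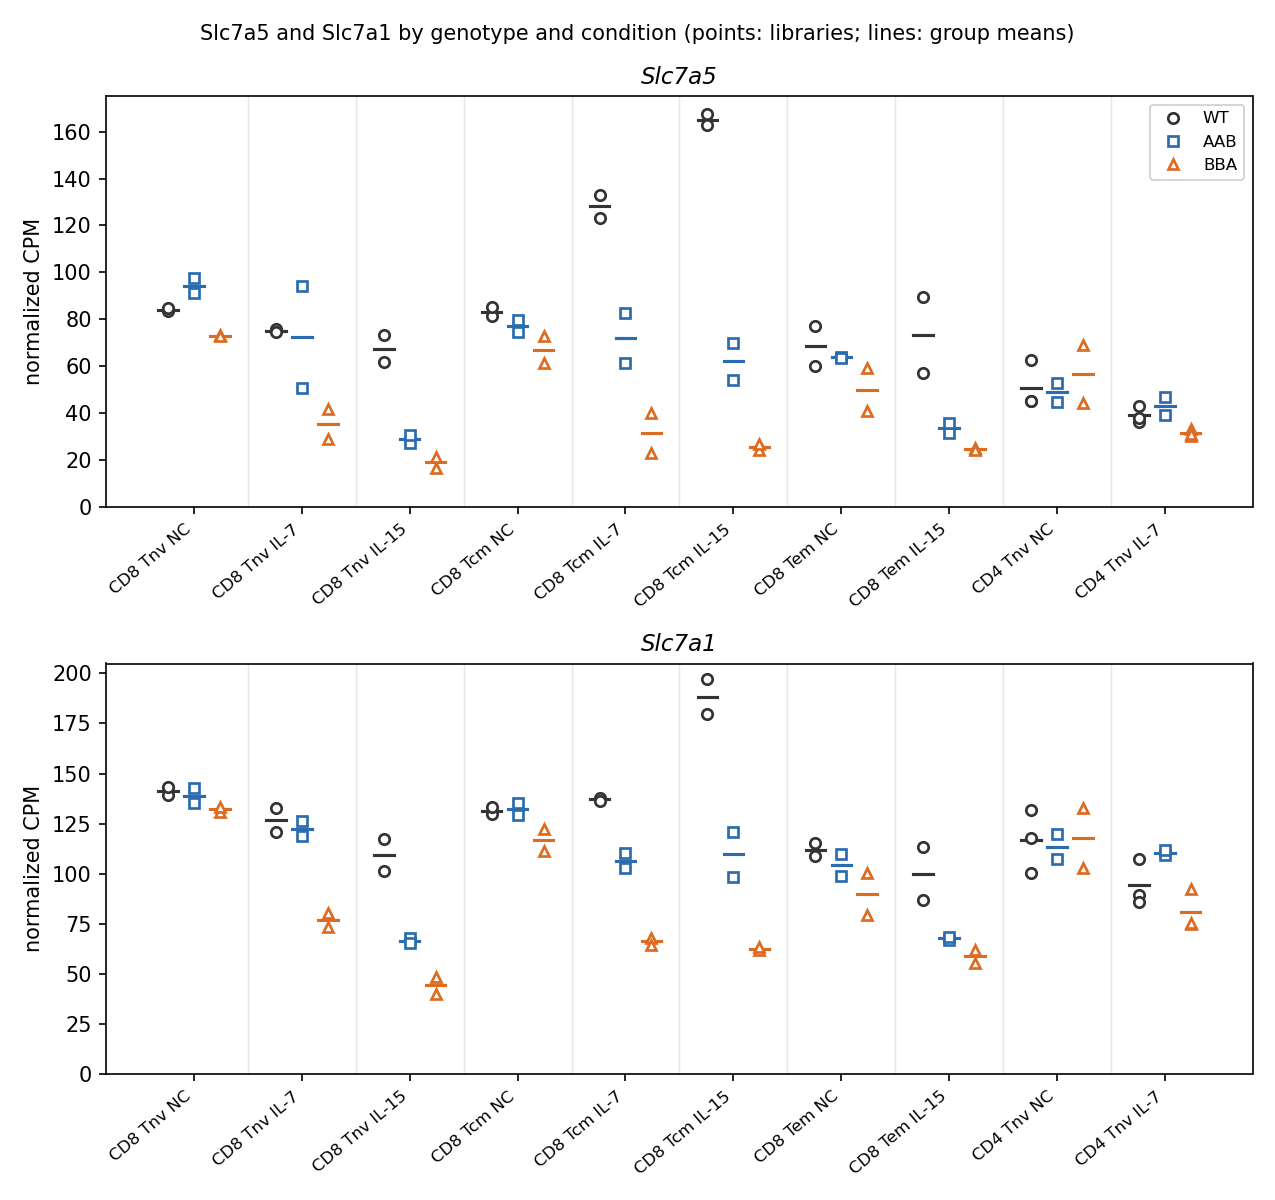
CPM of Slc7a5 and Slc7a1 in each library of the CD8 and CD4 groups, with WT, AAB and BBA side by side in each condition and the bar at the group mean. In Tcm with IL-15 the 2 WT libraries of Slc7a5 sit at 163 and 167 CPM and the 2 BBA libraries at 24.1 and 27.0 CPM. Without cytokine the genotypes lie closer together, with the BBA libraries of Slc7a5 below those of WT in each CD8 state.

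Slc3a2 encodes the heavy chain that brings SLC7A5, SLC7A6 and other light chains to the cell surface, and it differed less between genotypes than Slc7a5. It was at 156 and 153 CPM in WT, 118 and 123 CPM in AAB and 92.9 and 95.2 CPM in BBA Tcm with IL-15, in 3 ranges that did not overlap. WT over BBA was log2 0.44 ± 0.08 SE (adjusted p = 0.0054), below the limit of 1.5-fold, and so was not called. It was called with filterByExpr (0.66, adjusted p = 0.00076) and without a filter on low counts (0.69, adjusted p = 5.9e-06). In this comparison these settings moved all 8 tested members up together, by 0.222 to 0.226 and by 0.244 to 0.257 on the log2 scale. In the other 9 comparisons of WT with BBA the log2 difference was between 0.01 and 0.48 with adjusted p from 0.14 to 0.99. The value of 0.48 was that of Tcm with IL-7 (168 and 115 CPM in WT, 88.1 and 84.2 CPM in BBA), which was called without replicate 2 of WT (0.68, adjusted p = 0.0062).

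Slc7a1, the arginine and lysine importer, moved with Slc7a5. Its level in Tcm with IL-15 was 197 and 180 CPM in WT, 98.5 and 121 CPM in AAB and 61.8 and 63.4 CPM in BBA, without overlap and with AAB in between. WT exceeded BBA 2.48-fold (log2 1.31 ± 0.11 SE, adjusted p = 0.00033), which held without any 1 library. WT exceeded AAB 1.63-fold (0.71 ± 0.10, adjusted p = 0.014), a call lost without replicate 1 of AAB (0.60, adjusted p = 0.079) and without replicate 1 of WT (0.68, adjusted p = 0.077). AAB exceeded BBA 1.52-fold (0.60 ± 0.11, adjusted p = 0.021), a call lost without replicate 2 of AAB (0.47, adjusted p = 0.11) and without either BBA library (adjusted p = 0.078 and 0.085).

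The level of Slc7a1 in Tnv with IL-15 was 117 and 101 CPM in WT, 67.7 and 65.6 CPM in AAB and 40.1 and 48.7 CPM in BBA, and the genotypes did not overlap. WT exceeded BBA 2.02-fold (log2 1.01 ± 0.12 SE, adjusted p = 0.0046), without a loss of the call when any 1 library was left out, and WT over AAB was 0.61 ± 0.12 (adjusted p = 0.067). With IL-7 the BBA libraries were the low ones: Tnv had 121 and 133 CPM in WT, 126 and 119 CPM in AAB and 73.5 and 80.2 CPM in BBA. WT exceeded BBA 1.62-fold in Tnv (0.70 ± 0.11, adjusted p = 0.031), with an adjusted p of 0.15 to 0.24 when any 1 of the 4 libraries was left out. In Tcm with IL-7 the level was 138 and 136 CPM in WT, 103 and 110 CPM in AAB and 68.1 and 64.5 CPM in BBA. WT exceeded BBA 1.77-fold there (0.82 ± 0.13, adjusted p = 0.032), a call lost without replicate 1 (0.84, adjusted p = 0.18) or 2 of BBA (0.81, adjusted p = 0.29) and with the sex term (0.83, adjusted p = 0.13).

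In Tem with IL-15 the values of Slc7a1 were 113 and 86.8 CPM in WT, 66.8 and 68.5 CPM in AAB and 62.1 and 55.6 CPM in BBA, and the difference of WT over BBA of 0.73 ± 0.12 missed the limit (adjusted p = 0.053). It was called with the replicate number as a block (0.73, adjusted p = 0.0025), by DESeq2 (0.71, adjusted p = 2.5e-06) and with one fit over all CD8 libraries (0.74, adjusted p = 9.0e-05). Without cytokine its log2 difference of WT over BBA was 0.09 in Tnv, 0.08 in Tcm and 0.19 in Tem, with adjusted p from 0.48 to 0.84, and WT libraries were at 109 to 143 CPM and BBA libraries at 79.4 to 133 CPM. In CD4+ Tnv with IL-7 it was at 89.4, 86.1 and 107 CPM in WT and 92.5, 74.7 and 75.2 CPM in BBA, which overlapped (0.20 ± 0.11, adjusted p = 0.27).

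Slc7a6 (y+LAT2), an exchanger of cationic against neutral amino acids that also needs SLC3A2, was not called between genotypes in the reported fits. Its WT libraries lay above those of BBA in Tcm with IL-15, at 77.9 and 70.3 against 44.0 and 42.7 CPM, with AAB at 50.9 and 54.4 CPM. There the log2 difference of WT over BBA was 0.49 ± 0.09 SE (adjusted p = 0.0048) and that of WT over AAB 0.42 ± 0.09 (adjusted p = 0.036), both under 1.5-fold. The value over BBA was called with filterByExpr (0.72, adjusted p = 0.0010) and without a filter on low counts (0.75, adjusted p = 6.4e-06), with the shift of all members given above for Slc3a2. Tnv with IL-15 had 68.8 and 55.1 CPM in WT, 38.7 and 38.2 CPM in AAB and 28.9 and 38.7 CPM in BBA (0.59 ± 0.15 over BBA, adjusted p = 0.055). This difference was called without replicate 2 of WT (0.75, adjusted p = 0.048), and with DESeq2 (0.59), the block (0.59), one fit over all CD8 libraries (0.62), filterByExpr (0.80) and no filter (0.90), at adjusted p of 0.0011 to 0.036. Over AAB it was called with one fit (0.60, adjusted p = 0.014) and without a filter (0.69, adjusted p = 0.040).

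Among the neutral amino acid importers, Slc38a2 (SNAT2) was called in the memory states. Tcm with IL-15 had 387 and 366 CPM in WT, 262 and 294 CPM in AAB and 219 and 194 CPM in BBA, without overlap. WT exceeded BBA 1.51-fold (log2 0.59 ± 0.09 SE, adjusted p = 0.0030), a value just past the fold limit that was 0.49 (adjusted p = 0.025) and not called without replicate 2 of BBA. Tem with IL-15 had 352 and 267 CPM in WT, 245 and 197 CPM in AAB and 197 and 155 CPM in BBA. WT exceeded BBA 1.72-fold there (0.78 ± 0.10, adjusted p = 0.033), and with any 1 of the 4 libraries left out the adjusted p was 0.10 to 0.27. In Tnv with IL-15 the values were 318 and 266 CPM in WT and 164 and 209 CPM in BBA (0.36 ± 0.14, adjusted p = 0.18), and without cytokine the BBA libraries were not lower: 348 and 436 CPM in Tnv against 247 and 350 CPM in WT.

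Slc38a1 (SNAT1), its neighbour on chromosome 15, was at 163 to 325 CPM over all CD8 libraries and was called in no comparison of genotypes. Tcm with IL-15 had 325 and 313 CPM in WT, 243 and 281 CPM in AAB and 259 and 259 CPM in BBA, so that both WT libraries were the highest. The fitted difference of WT over BBA was 0.03 ± 0.09 (adjusted p = 0.85). The CPM totals were scaled over the whole table and the fit over the tested genes of 1 condition. In this condition the fit put WT over BBA values of the members 0.24 to 0.26 lower on the log2 scale than a fit without a filter on low counts.

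Slc1a5 (ASCT2), the glutamine exchanger with the highest level per kilobase, was called against BBA in CD4+ Tnv with IL-7. There it was at 206, 223 and 231 CPM in WT, 155 and 98.6 CPM in AAB and 98.1, 90.1 and 156 CPM in BBA, with all WT libraries above all others. WT exceeded BBA 1.90-fold (log2 0.93 ± 0.22 SE, adjusted p = 0.026), a call that held without replicate 3 of BBA and was lost when any 1 of the other 5 libraries was left out (adjusted p = 0.053 to 0.087). WT over AAB was 0.79 ± 0.25 (adjusted p = 0.24). CD4+ Tnv without cytokine had a like difference, with 252, 309 and 247 CPM in WT against 110 and 205 CPM in AAB and 176 and 99.4 CPM in BBA, and it did not pass (0.97 ± 0.30 over BBA, adjusted p = 0.25). In CD8+ Tnv with IL-7 the level was 335 and 365 CPM in WT, 325 and 139 CPM in AAB and 137 and 207 CPM in BBA (1.01 ± 0.35 over BBA, adjusted p = 0.20). The difference over BBA was called by DESeq2 (1.01, adjusted p = 0.031). It was also called with one fit over all CD8 libraries (0.99, adjusted p = 0.019) and without a filter (1.03, adjusted p = 1.0e-09). Tcm with IL-15 had 268 and 274 CPM in WT, 221 and 268 CPM in AAB and 192 and 152 CPM in BBA (0.38 ± 0.13 over BBA, adjusted p = 0.055). That difference was called with filterByExpr (0.60, adjusted p = 0.0078) and without a filter (0.63, adjusted p = 7.0e-05), with the shift of all members given above for Slc3a2.

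Slc43a1 (LAT3), which lets large neutral amino acids pass without exchange, was the member called lower in WT. Tcm with IL-15 had 3.41 and 0.927 CPM in WT (52 and 14 counts), 6.77 and 5.72 CPM in AAB (99 and 87 counts) and 9.55 and 4.73 CPM in BBA (101 and 65 counts), with WT below the others. BBA exceeded WT 3.96-fold (log2 of WT over BBA −1.99 ± 0.57 SE, adjusted p = 0.029), a call lost without replicate 2 of WT (−1.34, adjusted p = 0.080), and the gene did not pass the filter without either BBA library. The same order was seen in Tcm without cytokine, at 2.59 and 1.21 CPM in WT, 6.74 and 6.14 CPM in AAB and 8.05 and 4.22 CPM in BBA (−1.86 ± 0.52, adjusted p = 0.32). In Tcm with IL-7 the WT libraries were at 12.9 and 15.9 CPM and those of BBA at 17.4 and 6.57 CPM, which overlapped (0.06 ± 0.44, adjusted p = 0.94). In Tnv with IL-15 it did not pass the filter between genotypes, and was called lower in WT than in BBA with filterByExpr (−2.22, adjusted p = 0.021), without a filter (−2.10, adjusted p = 0.0035) and with one fit over all CD8 libraries (−2.39, adjusted p = 0.029). In the CD4 table it was at 0 to 0.759 CPM and was not tested.

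Slc1a4 (ASCT1), an exchanger of alanine, serine and cysteine, was at 0.101 to 3.56 CPM over the CD8 libraries, from 1 to 49 counts. It passed the filter in CD4+ Tnv without cytokine and in the fit of the IL-7 interaction of those cells, and in none of the genotype comparisons of CD8 cells. CD4+ Tnv without cytokine had 1.57, 0.777 and 1.03 CPM in WT and 3.83 and 1.27 CPM in BBA (log2 −1.12 ± 0.59 SE, adjusted p = 0.60). Tcm with IL-15 had 0.787 and 0.397 CPM in WT (12 and 6 counts), 0.684 and 0.592 CPM in AAB (10 and 9 counts) and 1.98 and 1.75 CPM in BBA (21 and 24 counts), with BBA above the others. Slc1a4 was called there, lower in WT than in BBA, with filterByExpr (−1.69 ± 0.53, adjusted p = 0.029) and without a filter (−1.67 ± 0.61, adjusted p = 0.026).

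**Figure D4:**
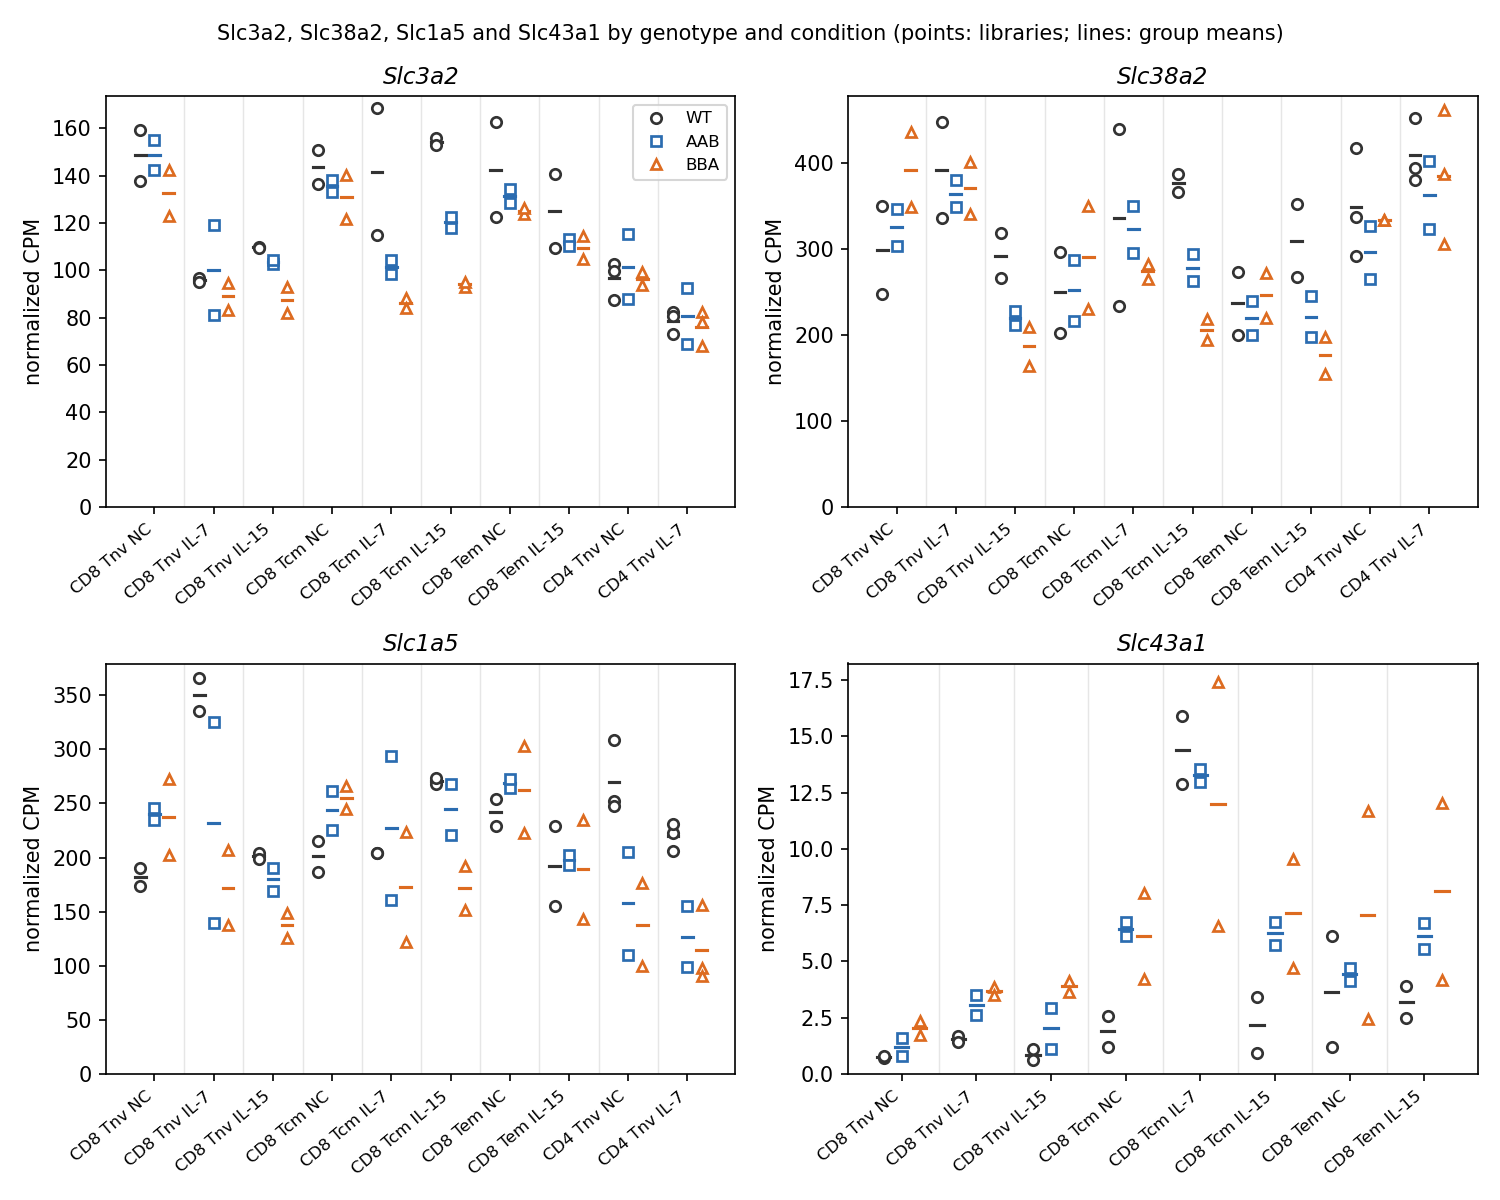
CPM of Slc3a2, Slc38a2, Slc1a5 and Slc43a1 in each library, by condition and genotype, with a point per library and the bar at the group mean; for Slc43a1 the CD8 groups are drawn. Slc38a2 lies at 366 and 387 CPM in WT and at 194 and 219 CPM in BBA Tcm with IL-15, and Slc43a1 is at 0.927 and 3.41 CPM in WT and at 4.73 and 9.55 CPM in BBA.

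Markers of other cells moved with genotype beside these calls. In Tcm with IL-15 the summed B cell markers (4 of 4 in the table) were at 101 to 177 CPM in WT, 71.2 to 198 CPM in AAB and 174 to 356 CPM in BBA, and the myeloid markers (5 of 5) at 11.1 to 14.8, 14.4 to 31.2 and 29.5 to 54.8 CPM, with no marker of either list at 0 counts. The 4 genes of the effector and memory state were at 1706 to 1922 CPM in WT, 1568 to 1646 CPM in AAB and 720 to 937 CPM in BBA, and Mki67 and Top2a together at 105 to 120, 64.8 to 131 and 35.2 to 64.4 CPM. In Tnv with IL-15 the myeloid markers were at 8.93 to 14.0 CPM in WT and 37.7 to 70.9 CPM in BBA, and in Tem with IL-15 at 12.6 to 25.7 and 18.4 to 137 CPM. Among Tcm given IL-7, the B cell markers were at 18.2 to 41.8 CPM in WT and 132 to 232 CPM in BBA. The effector and memory genes were there at 2036 to 2328 CPM in WT, 855 to 1324 CPM in AAB and 531 to 735 CPM in BBA, and Mki67 and Top2a at 136 to 206 CPM in WT and 50.5 to 82.6 CPM in BBA. Among CD8+ Tnv given IL-7, the NK cell markers (3 of 3) were at 20.3 to 36.6 CPM in WT, 76.4 to 206 CPM in AAB and 157 to 260 CPM in BBA. Among CD4+ Tnv given IL-7, these were at 0.440 to 1.503 CPM in WT, 4.23 to 4.38 CPM in AAB and 22.03 to 28.5 CPM in BBA, and the B cell markers at 5.94 to 9.69 CPM in WT and 12.2 to 52.7 CPM in BBA. Up to 1 NK cell marker was at 0 counts in the AAB and BBA libraries of these Tnv, and up to 2 in the WT CD4+ ones. The part of these cells in the results for Slc7a5, Slc7a1, Slc38a2, Slc1a5 and Slc43a1 was not tested.

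The response of WT cells to a cytokine was read as the difference from WT cells without it. Here the called rise was that of Slc1a5 in CD8+ Tnv with IL-7, from 174 and 191 CPM to 335 and 365 CPM, a 2.01-fold difference without overlap (log2 1.01 ± 0.08 SE, adjusted p = 0.00051) that held without any 1 library. It was 1 of 7 tested members, where 20.2% of all tested genes were called. In the same comparison Slc3a2 was lower with IL-7 (−0.57 ± 0.09, adjusted p = 0.0039) and Slc38a1 (0.55 ± 0.08, adjusted p = 0.0032) and Slc7a6 (0.43 ± 0.12, adjusted p = 0.033) were higher, all under 1.5-fold and so not called. Leaving out 1 library made a call of Slc3a2 (−0.65 without replicate 1 of WT without cytokine) or of Slc38a1 (0.62 without replicate 2 of WT with IL-7). These IL-7 libraries were male and those without cytokine female, so sex and cytokine cannot be told apart in this response.

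In the other 5 responses edgeR called 0 members: 0 of 7 in CD8+ Tnv with IL-15 (background 6.17%), 0 of 8 in Tcm with IL-7 (0.353%), 0 of 8 in Tcm with IL-15 (0%), 0 of 7 in Tem with IL-15 (1.52%) and 0 of 7 in CD4+ Tnv with IL-7 (16.7%). At an unadjusted p under 0.05 there were 4, 2, 3, 2 and 4 members, and DESeq2 called 2 in Tcm with IL-7, 1 in Tcm with IL-15 and 0 in the others. The backgrounds above are those of edgeR calls and are not the background of these counts. For Tcm with IL-15 no gene of 11608 was called by edgeR, although 1386 were under an unadjusted p of 0.05 and DESeq2 called 335. Slc7a5 went there from 81.4 and 85.3 CPM to 167 and 163 CPM, without overlap (0.92 ± 0.14, adjusted p = 0.16), and Slc7a1 from 130 and 133 CPM to 197 and 180 CPM (0.45 ± 0.15, adjusted p = 0.33). The rise of Slc7a5 was called by DESeq2 (0.91, adjusted p = 4.0e-05). It was also called with one fit over all CD8 libraries (0.93, adjusted p = 0.013) and without a filter (0.89, adjusted p = 0.0031). In Tcm with IL-7, Slc43a1 went from 2.59 and 1.21 CPM to 12.9 and 15.9 CPM (2.98 ± 0.62, adjusted p = 0.13), and it was called without replicate 1 of WT with IL-7 (3.19, adjusted p = 0.026). The rise of Slc43a1 was called also by DESeq2 (2.97, adjusted p = 0.00022), with one fit over all CD8 libraries (2.98, adjusted p = 0.0095) and without a filter (2.98, adjusted p = 1.9e-10). The other member called there by DESeq2 was Slc7a5 (0.62, adjusted p = 0.013). In this response too the WT libraries with the cytokine were male and those without it female, and the effects of sex and IL-7 cannot be told apart. Markers of other cells also differed between these WT Tcm groups. The myeloid markers were at 38.6 to 51.8 CPM without cytokine and 114 to 178 CPM with IL-7. The B cell markers were at 176 to 280 and 18.2 to 41.8 CPM, and Mki67 and Top2a at 47.6 to 72.0 and 136 to 206 CPM. Their part in the rise of Slc43a1 was not tested. In CD4+ Tnv with IL-7, Slc7a5 had a log2 difference of −0.37 ± 0.14 (adjusted p = 0.065) and Slc3a2 of −0.29 ± 0.08 (adjusted p = 0.027).

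Whether the difference of WT over BBA changed with the cytokine was tested as an interaction on the WT and BBA libraries with and without it. In Tcm with IL-15 the change in the log2 difference was 2.15 ± 0.17 SE for Slc7a5 (adjusted p = 0.0034) and 1.19 ± 0.14 for Slc7a1 (adjusted p = 0.0076), both kept without any 1 library. These were 2 of 8 tested members, against 4.68% of all tested genes. In Tnv with IL-15 it was 1.35 ± 0.17 for Slc7a5 (adjusted p = 0.035) and 0.93 ± 0.14 for Slc7a1 (adjusted p = 0.036), 2 of 7 members against 0.823%. Of the 8 libraries in that fit, leaving out replicate 1 of BBA with IL-15 or any of the 4 without cytokine ended the call of Slc7a5 (adjusted p = 0.070 to 0.20). The same 5 libraries and either WT library with IL-15 ended that of Slc7a1 (adjusted p = 0.062 to 0.20). In Tnv with IL-7 the members called were 2 of 7, Slc1a5 (1.38 ± 0.28, adjusted p = 0.029) and Slc7a1 (0.59 ± 0.12, adjusted p = 0.034), against 4.05% of all tested genes. Both calls were lost without any 1 WT library (adjusted p = 0.079 to 0.13) and without replicate 1 of BBA without cytokine (0.080 and 0.092). That of Slc7a1 was lost also without replicate 2 of BBA without cytokine (0.073) and without replicate 1 of BBA with IL-7 (0.54, under 1.5-fold). Slc7a5 had 0.85 ± 0.22 (adjusted p = 0.063) there. It was called by DESeq2 (0.86, adjusted p = 0.0077). Calls of it came also with the replicate block (0.86, adjusted p = 0.047) and without a filter (0.82, adjusted p = 0.00045).

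In Tem with IL-15 edgeR called 0 of 7 members (background 0%) and 0 of 9652 genes, with 2 members and 720 genes at an unadjusted p under 0.05 and 0 members and 81 genes called by DESeq2. Slc7a5 had an interaction of 1.17 ± 0.35 (adjusted p = 0.50) in Tem. In CD4+ Tnv with IL-7 it called 0 of 8 members (background 1.20%), with 0 at an unadjusted p under 0.05 and 0 by DESeq2, and Slc7a5 had 0.45 ± 0.25 (adjusted p = 0.59).

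CA-STAT5A was compared with the empty vector in the retrovirus libraries, which lacked CD8 lineage markers as given above. Stat5a was at 60.7 and 60.9 CPM with CA-STAT5A and at 8.35 and 3.17 CPM with the empty vector. edgeR called 0 of 7 tested members, where 6.76% of all tested genes were called, with 2 members at an unadjusted p under 0.05 and 0 calls by DESeq2. Slc7a5 was at 15.6 and 21.6 CPM with CA-STAT5A and 19.0 and 18.2 CPM with the vector, which overlapped (log2 −0.03 ± 0.20 SE, adjusted p = 0.96). Slc7a1 was at 76.4 and 84.0 CPM against 91.8 and 97.8 CPM (−0.27 ± 0.11, adjusted p = 0.25). Slc1a5 was at 236 and 143 CPM against 113 and 130 CPM (0.61 ± 0.22, adjusted p = 0.17), and was called without replicate 2 of CA-STAT5A (0.92, adjusted p = 0.024). Each arm had 1 male and 1 female library, and with a term for sex edgeR called 0 of 7 as well, with 1 member at an unadjusted p under 0.05. The B cell markers were at 9.13 to 25.0 CPM with CA-STAT5A and 83.9 to 136 CPM with the vector, the plasma cell markers at 8.48 to 13.4 and 65.5 to 88.6 CPM, and the myeloid markers at 1423 to 1627 and 663 to 787 CPM. Their part in this comparison was not tested.

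Over the means of the 24 CD8 groups, the genes whose level was most like that of Slc7a5 were Eif3b (Pearson's r 0.981), a subunit of translation initiation factor 3, Cluh (0.976), Nomo1 (0.975), Grwd1 (0.975), a ribosome assembly factor, and Slc7a1 (0.974), of 8758 genes with a mean of at least 10 CPM. These values of log2(CPM + 1) share libraries and depth and are a description. Among the other members r was 0.87 for Slc7a6, 0.75 for Slc3a2, 0.66 for Slc38a2, 0.64 for Slc1a5 and 0.18 for Slc38a1, while Slc43a1 and Slc1a4 were below 10 CPM. In that order these 5 members ranked 566, 1624, 2473, 2692 and 5971 among the 8758 genes, so that many other genes were more like Slc7a5.

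Other amino acid transporters of the plasma membrane were mostly too low to test, with 4 to 8 of 24 tested between WT and BBA. None was called higher in WT than in BBA with IL-15. In Tcm with IL-15, 3 of 5 were lower in WT, where 23.7% of all tested genes were called in either direction: Slc6a19, a neutral amino acid transporter known from gut and kidney (log2 −4.38 ± 0.36 SE, adjusted p = 0.00032), Slc7a2, a paralog of Slc7a1 (−2.50 ± 0.32, adjusted p = 0.0014), and Slc16a10, which carries aromatic amino acids (−1.11 ± 0.29, adjusted p = 0.020). The list median was −1.11 against −0.02 over all tested genes. Slc7a2 was at 1.39 to 2.10 CPM in WT, 3.42 to 3.82 CPM in AAB and 7.20 to 9.17 CPM in BBA, the reverse of the order of Slc7a1. In Tnv with IL-15, 3 of 6 were lower in WT, against 9.43% of all tested genes in either direction, and these were Slc6a19 (−3.89), the glutamate transporter Slc1a2 (−2.85) and Slc7a2 (−2.74).

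Slc6a19 was lower in WT than in BBA without cytokine too, in Tnv (5.17 to 5.20 against 43.7 to 70.2 CPM, log2 −3.46, adjusted p = 0.0020) and in Tcm (−3.61, adjusted p = 0.020). It was lower in WT in Tcm with IL-7 as well (−5.68 ± 1.01, adjusted p = 0.041), as 1 of 4 tested genes of the list against 3.09% of all tested genes. Sex was unevenly spread over the genotypes there. In Tnv with IL-7 it was at 53.9 to 62.7 CPM in WT, 1.69 to 14.96 CPM in AAB and 60.5 to 64.4 CPM in BBA. These Tnv libraries were male and those without cytokine female, so sex and IL-7 cannot be told apart between them. With IL-7 the list member called higher in WT was Slc7a8 (LAT2), which like Slc7a5 pairs with SLC3A2: in CD8+ Tnv (4.46 ± 0.64, adjusted p = 0.024) and in CD4+ Tnv (4.21 ± 0.38, adjusted p = 0.00023). In CD4+ Tnv with IL-7, Slc7a8 was at 6.95 to 14.9 CPM in WT, 7.99 to 8.37 CPM in AAB and 0.532 to 0.716 CPM in BBA, and AAB exceeded BBA (3.71 ± 0.41, adjusted p = 0.0022). WT CD4+ Tnv without cytokine had 0.111 to 0.294 CPM of it.

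Transporters of the lysosome, which return amino acids to the cytosol, included 6 of 8 tested genes in Tcm with IL-15, and 3 were called against the background of 23.7%, all lower in WT than in BBA: Pqlc2, an exporter of cationic amino acids (log2 −0.99 ± 0.26 SE, adjusted p = 0.021), the cystine exporter Ctns (−0.65 ± 0.18, adjusted p = 0.026) and Slc38a9, a sensor of lysosomal arginine (−0.64 ± 0.10, adjusted p = 0.0027). The median of this list was −0.53. Genes of the amino acid response, which ATF4 drives when amino acids are short, had 3 of 11 tested genes higher in WT than in BBA in Tcm with IL-15, and none lower, a share near the 23.7% of all tested genes. They were Psat1 (1.79 ± 0.17, adjusted p = 0.00060) and Phgdh (0.996 ± 0.13, adjusted p = 0.0016), enzymes of serine synthesis, and Aars (0.72 ± 0.11, adjusted p = 0.0024), the alanyl-tRNA synthetase, while the list median was −0.02. Psat1 was at 63.1 to 77.6 CPM in WT, 38.0 to 49.5 CPM in AAB and 14.6 to 19.1 CPM in BBA. In the interaction with IL-15 in Tcm the same list had 3 of 10 called against 4.68% of all tested genes, again Psat1 (1.82), Phgdh (1.02) and Aars (0.81). In WT Tnv with IL-7 against no cytokine, Ddit4 (−3.49), Cebpb (−3.92) and Atf4 (−0.72) fell and Trib3 (1.55) rose, 4 of 11 tested genes of this list against 20.2% of all tested genes. The same 4 genes were called in the same direction in WT Tnv with IL-15 (background 6.17%) and in CD4+ Tnv with IL-7 (16.7%). Their log2 differences were −2.23 and −3.45 for Ddit4 and 1.82 and 2.95 for Trib3. In CD4+ Tnv, Psat1 and Phgdh fell as well. In Tem with IL-15 Ddit4 fell (−2.50, background 1.52%), and in Tcm no gene of the list was called. Culture and cytokine cannot be told apart in these responses, nor sex and IL-7 in CD8+ Tnv.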

How the data were processed

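The authors deposited raw read counts per gene symbol, made from 50 base single-end reads of poly(A) RNA with TopHat2, Cufflinks and HTSeq. The labels name the build mm9 and the methods of the study mm10, and the strand setting is not given in the sources used here. Counts of 69 libraries were read, of which 2 with contradictory labels were put in no group. In the retrovirus table, 5 summary lines with 67.0 to 68.4% of the column totals were left out, and 0 columns of other samples were present. The members and the gene lists were chosen with earlier results of these data known.

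CPM values were computed here with TMM scaling over each whole table, which was scaled separately for the CD8, CD4 and retrovirus libraries. Each condition was fitted with all of its genotypes, and each cytokine response, interaction and cell state comparison with its own groups, by the quasi-likelihood test of edgeR 4.0.16 (R 4.3.3, limma 3.58.1) in its legacy form, with TMM over the tested genes. Fitted folds therefore differ from ratios of CPM. Genes were filtered by a Jaccard index between replicates, as in HTSFilter, over 100 thresholds from 1 to 200 normalized counts with a loess span of 0.3. The thresholds chosen were 29.1 to 158, which left 9248 to 11608 genes. A call needed more than 1.5-fold and a Benjamini-Hochberg adjusted p under 0.05 over all tested genes. Adjusted p-values are two-sided edgeR values, except where DESeq2 is named, for which its own adjusted values are given. The fits were tested on simulated data. A count of 3 in a CD8 library equals 0.130 to 0.411 CPM, which covers counting error only and lies near the low levels of Slc1a4.

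All 9 members were named in the text, with up to 4 called genes a list and comparison, by size of the fold, from 3 lists: 24 other transporters of the plasma membrane, 8 of the lysosome and 15 amino acid response genes. The 5 genes most like Slc7a5 were those with the highest Pearson correlation of log2(CPM + 1). Gene positions are from GENCODE M21 on GRCm38. The alternatives were DESeq2 1.42.0, its size factors in edgeR, no filter, filterByExpr, a replicate block, one fit per lineage, a sex term and leaving out each library. The sex term in the retrovirus fit was chosen after seeing the data.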

Additional observations from a re-analysis of the deposited data

Results flagged for a closer look

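In CD8+ T cells 6 results stood out because the difference of WT over BBA with a cytokine was itself different from that without one, by the interaction test of edgeR. With IL-15 the change in the log2 difference was 1.35 for Slc7a5 and 0.93 for Slc7a1 in Tnv, and 2.15 for Slc7a5 and 1.19 for Slc7a1 in Tcm. With IL-7 in Tnv it was 1.38 for Slc1a5 and 0.59 for Slc7a1. The Tnv libraries with IL-7 were from male mice and those without cytokine from female mice, so sex and cytokine cannot be told apart in the last pair. The AAB libraries were not part of these tests.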

How the results depend on the processing

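No value of a tested member changed direction to a call of the other sign, and the 284 values were on the same side of the limits with the DESeq2 size factors. The calls that held under each alternative and without any 1 library were those of Slc7a5 and Slc7a1 between WT and BBA in Tnv and Tcm with IL-15, of Slc7a5 between WT and AAB and between AAB and BBA in Tcm with IL-15, of Slc1a5 in WT Tnv with IL-7, and both interactions in Tcm with IL-15. Counts of members called follow, with the reported count after "from". The share of all genes called under each alternative is not given beside them. A higher or lower count is therefore a description of the setting and no result about the members.

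Without a filter on low counts, WT against BBA gave 3 from 1 in CD8+ Tnv with IL-7, 5 from 2 in Tnv with IL-15, 8 from 4 in Tcm with IL-15, 1 from 2 in Tem with IL-15, and 1 from 0 in Tcm and in CD4+ Tnv without cytokine. WT against AAB gave 3 from 1 in Tnv with IL-15, and 1 from 0 in Tnv and Tcm with IL-7, in Tem with IL-15, and in Tcm and CD4+ Tnv without cytokine. The WT response gave 2 from 1 in Tnv with IL-7 and 1 from 0 in Tcm with either cytokine, the interactions with IL-15 gave 5 from 2 in Tnv and 5 from 2 in Tcm, and the retrovirus comparison 1 from 0. Without the filter the median of all genes moved to −0.46 between WT and BBA in Tcm and to −0.44 in Tnv with IL-15, so these counts rest on another centre. With filterByExpr WT against BBA gave 4 from 2 in Tnv, 8 from 4 in Tcm and 0 from 2 in Tem with IL-15, and the WT response to IL-7 in Tnv gave 2 from 1. With it the log2 values of WT over BBA of all members tested in both fits rose together with IL-15. The rise was 0.222 to 0.226 in Tcm and 0.203 to 0.210 in Tnv.

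With DESeq2 WT against BBA gave 3 from 1 in Tnv with IL-7 and 1 from 0 in Tcm without cytokine, WT against AAB gave 2 from 1 in Tnv and 1 from 0 in Tem with IL-15, the WT response gave 2 from 0 with IL-7 and 1 from 0 with IL-15 in Tcm, and the interaction with IL-7 in Tnv gave 4 from 2. With one fit per lineage WT against BBA gave 3 from 1 with IL-7 and 4 from 2 with IL-15 in Tnv, WT against AAB gave 3 from 1 in Tnv and 2 from 0 in Tem with IL-15, the WT response gave 1 from 0 with IL-7 and 2 from 0 with IL-15 in Tcm, and the interaction with IL-7 in Tnv gave 1 from 2. With the sex term, Tcm with IL-7 gave 0 from 2. The cause of these changes was not tested.

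The samples share only a replicate number, to which the labels give no meaning. Same-numbered CD8 libraries outside Tcm with IL-7 correlated in their deviations (r 0.147 to 0.692 over 21 pairs of groups), as did CD4 libraries (0.0911 to 0.509), while Tcm with IL-7 had −0.05 to 0.364. With the replicate block WT against BBA gave 2 from 1 in Tnv with IL-7 and 1 from 0 in Tcm without cytokine, WT against AAB 2 from 1 in Tnv and 1 from 0 in Tem with IL-15, and the interactions 4 from 2 in Tcm with IL-15 and 4 from 2 in Tnv with IL-7. Further calls gained with the block were those of Slc43a1 between WT and AAB in Tcm with IL-15 (−1.73, adjusted p = 0.018), and of Slc7a6 in Tnv and Slc7a1 in Tem with IL-15 between WT and BBA, as given above. No call was lost with it. No paired analysis by replicate number was possible for the retrovirus groups, because they share only 1 replicate number in the labels. A sex term, which was added after seeing the data, left 0 calls there. With 1 male and 1 female library in each arm, this term matched the libraries of the arms by sex.

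Leaving out 1 library in turn gave, for WT against BBA, 0 to 1 in Tnv without cytokine, 0 in Tnv with IL-7, 2 to 3 in Tnv with IL-15, 0 to 3 in Tcm with IL-7, 2 to 4 in Tcm with IL-15, 0 in Tem with IL-15 and 0 to 1 in CD4+ Tnv with IL-7. For WT against AAB it gave 0 to 1 in Tnv with IL-15, 0 to 1 in Tcm with IL-7 (where Slc38a2 was called at −0.66 without replicate 2 of WT) and 1 to 2 in Tcm with IL-15, and for AAB against BBA 1 to 2 in Tcm with IL-15. The WT response gave 1 to 2 in Tnv and 0 to 1 in Tcm with IL-7, the interactions 0 to 2 in Tnv and 2 in Tcm with IL-15 and 0 to 3 in Tnv with IL-7 (Slc7a5 was called at 1.16 and 0.60 without replicate 1 or 2 of BBA), and the retrovirus comparison 0 to 1.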

Other observations

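The CD4+ Tnv samples whose labels contradict each other entered no comparison, and they were at 1.91 and 45.9 CPM of Stat5a and at 149 and 103 CPM of Stat5b. In the same order, Slc7a5 was at 42.8 and 48.9 CPM, Slc3a2 at 85.0 and 91.1 CPM, Slc7a1 at 112 and 104 CPM and Slc7a6 at 68.9 and 80.5 CPM. Slc38a2 was at 294 and 361 CPM, Slc38a1 at 123 and 146 CPM and Slc1a5 at 122 and 227 CPM. Slc43a1 was at 0.305 and 0.465 CPM, and Slc1a4 at 0.610 and 0.931 CPM.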
